A study of Mus musculus with 5 samples.

Results

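The genes described here are those of oxidative phosphorylation encoded in the nucleus: the subunits of respiratory complexes I to V and the factors named with them. They were taken by symbol, as every gene whose name starts with Nduf, Uqcr, Atp5 or Cox followed by a digit, together with Sdha, Sdhb, Sdhc and Sdhd. This gave 101 of the 24347 gene symbols in the deposited tables. The question of the study was how gene expression differs between Krt6a+ and WAP+ cells. RNA was sequenced from 2 libraries of Krt6a+ cells, numbered 2 and 3, and 3 libraries of WAP+ cells, numbered 1 to 3. Both groups were taken from mammary precancerous tissue of MMTV-Wnt-1 transgenic mice on a mixed FVB, SJL and C57BL/6 background, so neither group was free of the transgene. The MMTV long terminal repeat drives Wnt-1 in the mammary epithelium of these mice. The labels describe the Krt6a+ cells as keratin 6a+ precancerous stem cells. Each sample was a small pool of cells sorted by flow cytometry with a TVA antibody, TVA being the receptor of an avian retrovirus; how TVA marked each population, and the age of the mice, is not given in the sources used here. The labels do not tie the libraries to separate animals, and p-values therefore cover only the scatter among these 5 libraries, part of which may be technical. In pooled cells, fewer cells of a type and less RNA per cell cannot be told apart.

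The respiratory chain passes electrons from NADH through complex I, or from succinate through complex II, by way of ubiquinone to complex III, and then by cytochrome c to complex IV, where oxygen is reduced. Complexes I, III and IV move protons across the inner mitochondrial membrane, and complex V, the ATP synthase, uses the returning protons to make ATP. Complexes I, III, IV and V are built from subunits of both the nuclear and the mitochondrial genome with the help of dedicated assembly factors, whereas complex II is wholly nuclear. In the mammary gland, mitochondria of the secretory epithelium are known to increase at lactation. The mitochondrially encoded subunits were not analysed here.

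The libraries were of similar depth, with 8112 and 8580 genes reaching 1 FPKM in the Krt6a+ libraries, against 8900, 8420 and 8202 in the WAP+ libraries. Krt6a, a keratin of stressed epithelia, was at 1380 and 1133 FPKM in the Krt6a+ libraries and at 168, 50.01 and 120.3 FPKM in the WAP+ libraries. Wap, the whey acidic milk protein, was listed at 0 in both Krt6a+ libraries and at 50.1, 126 and 13.9 FPKM in the WAP+ libraries. Krt5, a basal keratin, was higher in the Krt6a+ libraries, at 434 and 373.5 FPKM, against 22.4, 13.4 and 34.7 FPKM in the WAP+ libraries (limma, adjusted p = 0.027). The luminal keratin Krt8 was at 66.2 and 719 FPKM in the Krt6a+ libraries and 1664, 1917 and 1681 FPKM in the WAP+ libraries and did not pass the test (adjusted p = 0.12), nor did Krt18 (0.061) or Krt14 (0.21). The part of such differences in the results below was not tested. FPKM counts sequenced fragments relative to transcript length and to the size of the library. Levels of different genes are set side by side on this scale, within the limits of the trend with length described below. An exact 0 in these tables can be a failed estimate: Gapdh, which all cells use, was listed at 0 in 3 of the 5 libraries and Eno1 in all 5.

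Of the 101 genes, 91 reached 1 FPKM in 2 libraries or more and were tested, and 78 reached it in all 5. The 10 that were not tested were Ndufs5 of complex I, Cox4i2, Cox6a2, Cox7b2, Cox8b, Cox8c and Ndufa4l2 of complex IV, the assembly factor Cox15, and Atp5g2 and Atp5s of the ATP synthase group. Ndufs5, Atp5g2, Cox6a2, Cox8b and Cox8c were listed at 0 in all 5 libraries. Ndufa4l2, a hypoxia-induced relative of Ndufa4, was at 0 and 31.8 FPKM in the Krt6a+ libraries and at 0 in all WAP+ libraries. Cox7b2 was at 9.57 FPKM in Krt6a+ library 2 and at 0 in the other libraries.

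The genes as a group stood lower in the Krt6a+ libraries. Differences below are log2(scaled FPKM + 1) in Krt6a+ minus WAP+ libraries with the standard error (SE), n = 2 and 3, from limma, with Benjamini-Hochberg adjustment over all 9682 genes tested and a threshold of 0.05 on the adjusted p. The difference was below 0 for 85 of the 91 genes, or 93.4%, and above 0 for 6. Below 0 were 50.2% of all genes tested and, by length bin, 69.6% to 77.7% of genes outside this group under 1000 bases. The median of the 91 was -1.10 on the log2 scale, beside a median of -0.01 for all genes tested. After scaling, both Krt6a+ libraries lay below all 3 WAP+ libraries for 55 genes, or 60.4%, against 17.4% of all genes tested. The share was 26% for the outside genes of 449 to 1911 bases, the 10th to 90th percentile of the members' lengths. For outside genes under 1000 bases, where 59 of the 91 lie, it was 31.9% to 51.8% by length bin. For none of the 91 did both Krt6a+ libraries lie above all 3 WAP+ libraries. Even so, limma called 3 of the 91 lower, namely Cox7a1, Cox20 and Ndufab1, and 0 higher. Cox7a1 and Ndufab1 reached 1 FPKM only in WAP+ libraries, and Cox20 besides only at 1.00 FPKM in Krt6a+ library 3. A gene that passes the filter only through the WAP+ libraries can hardly come out higher in Krt6a+. The direction of these 3 calls is therefore no evidence in itself. Of all genes, 0.434% were called lower and 0.258% higher, or 42 and 25 genes. For all genes the numbers called were 39 lower and 39 higher after quantile normalization, and 52 lower and 124 higher with the length trend described below removed. At an unadjusted p under 0.05, 44 of the 91 were lower and 0 higher, beside 9.45% and 7.66% of all genes tested.

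Summed over the 101 genes, the level was 18120 and 15064 FPKM in the Krt6a+ libraries and 30789, 42320 and 28600 FPKM in the WAP+ libraries. These sums were 4.70% and 3.62% of all FPKM in the Krt6a+ libraries, against 5.89%, 8.19% and 6.82% in the WAP+ libraries. The 2 groups did not overlap, and WAP+ library 2 was the highest. The ratio of the mean scaled sums, Krt6a+ over WAP+, was 0.449. The order of the genes by level was much the same in every library: across the 78 genes at FPKM 1 or more throughout, Spearman's rho between pairs of libraries was 0.914 to 0.974, a description across genes of shared length and abundance.

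**Figure D1:**
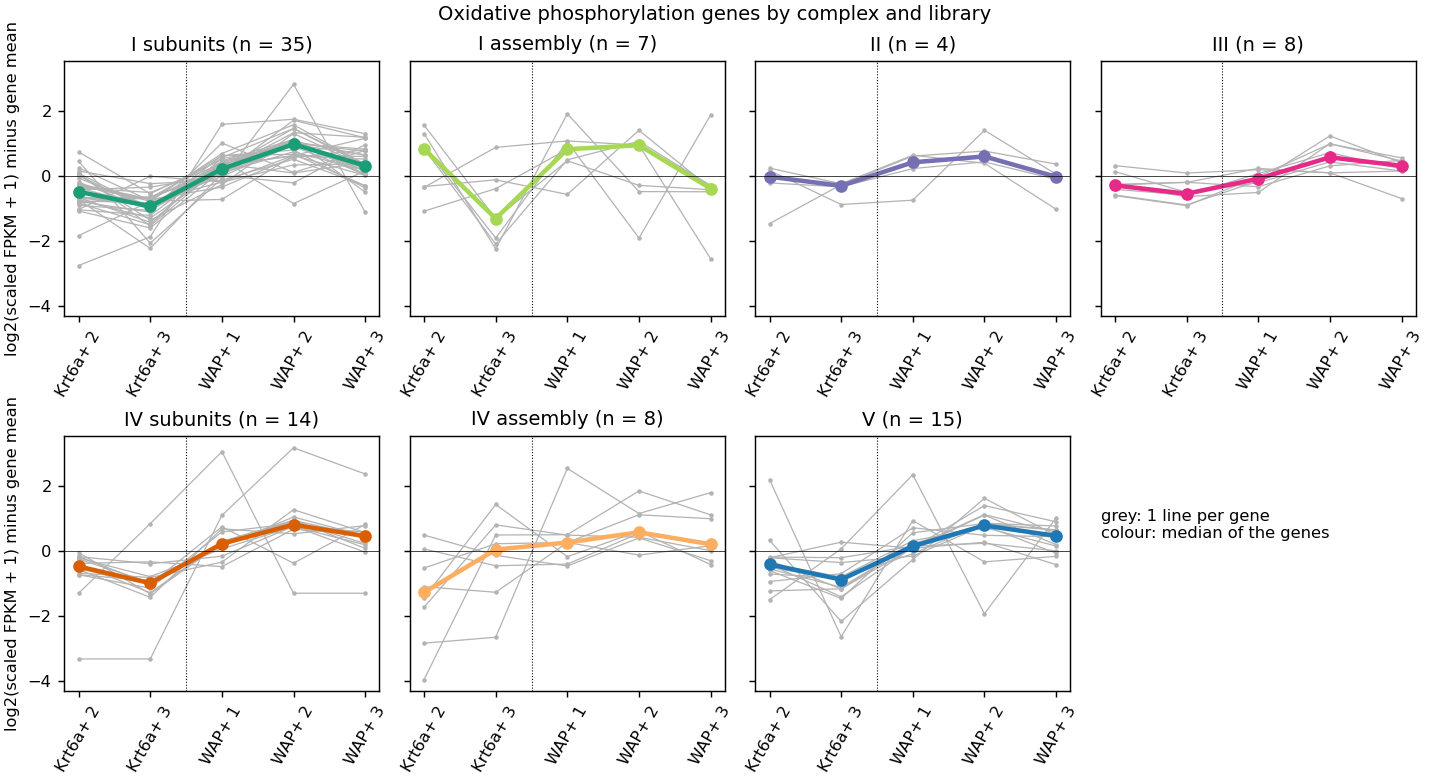
Each panel shows one complex or its assembly factors; the vertical axis is log2(scaled FPKM + 1) of each gene minus its mean over the 5 libraries, grey lines are genes and the coloured line is their median. For complex I subunits the median was -0.49 and -0.93 in Krt6a+ libraries 2 and 3 and 0.21, 0.97 and 0.32 in WAP+ libraries 1 to 3, while the complex I assembly factors were at 0.83 and -1.31 in the Krt6a+ libraries, against 0.82, 0.94 and -0.39 in the WAP+ libraries.

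Transcript length set these genes apart from most others, and the difference between the groups varied with length across the whole transcriptome. The 91 tested genes had a median length of 723 bases, from 292 to 3632, with 59 of them under 1000 bases, whereas the median of all tested genes was 2614 bases and 9.42% were under 1000. Among the genes outside the module, the median log2 difference was -1.26 under 450 bases (56 genes), -1.23 from 450 to 550 (75), -0.96 from 550 to 700 (179), -0.65 from 700 to 1000 (543), -0.43 from 1000 to 1500 (1104), -0.05 from 1500 to 3000 (3630) and 0.22 at 3000 bases or more (4004). In the same bins the oxidative phosphorylation genes had medians of -1.82 (10 genes), -1.24 (22), -1.05 (11), -1.25 (16), -0.79 (14) and -0.43 (17), and Ndufaf4, the only one of 3000 bases or more, was at -1.23. The medians of the outside genes below 1500 bases were thus all below 0. Without cytosolic and mitochondrial ribosomal protein genes, the outside medians were -1.035 under 450 bases (44 genes) and -0.95 from 450 to 550 (60). They were -0.93 from 550 to 700 (154) and -0.61 from 700 to 1000 (503).

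Set against genes of like length, the oxidative phosphorylation genes were still lower on balance, by less. For the 90 genes that had at least 10 outside genes within 10% of their length, the difference minus the median of those like-length genes had a median of -0.25, with 63 below 0 and 27 above. Restricted to genes that reached 1 FPKM in all libraries, the median over 76 genes was -0.27, with 50 below 0 and 26 above. When a loess trend of the values on transcript length was removed within each library, the median of the 91 became 0.06, with 45 below 0 and 46 above, beside 0.12 for all genes, and none of them was called in either direction, where 0.537% of all genes were called lower and 1.28% higher. The share of genes with both Krt6a+ libraries below all WAP+ libraries also depended on length. It was 70.0% of the 10 members under 450 bases, against 51.8% of the outside genes there, and 81.8% of the 22 from 450 to 550 bases, against 48.0%. From 550 to 700 bases it was 63.6% of 11 members, against 40.2%, and from 700 to 1000 bases 68.8% of 16, against 31.9%. Without ribosomal protein genes, the outside shares in these bins were 40.9%, 40.0%, 35.7% and 29.4%. What the trend with length stands for was not tested. Against genes of like length and by loess, the medians of the members had opposite signs, -0.25 and 0.06. Why the 2 measures differ was not tested.

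**Figure D2:**
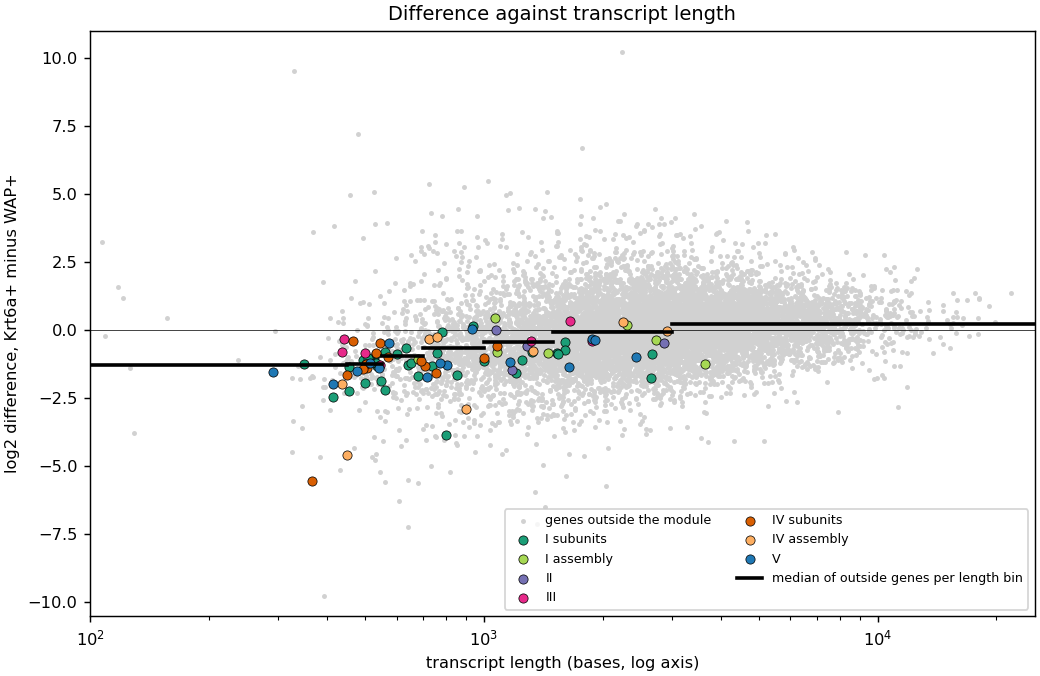
The log2 difference, Krt6a+ minus WAP+, is plotted against transcript length in bases on a log axis for the 91 genes (coloured by complex) and the 9591 other genes tested (grey); black bars are the medians of the other genes per length bin. The bars fall from 0.22 at 3000 bases or more to -1.26 under 450 bases, and 63 of the 90 genes with enough neighbours lie below the median of genes of like length.

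The lowest and the highest library were the same in other short genes, while WAP+ libraries 1 and 3 changed places. The 91 genes had median deviations from their own means of -0.40 and -0.88 on the log2 scale in Krt6a+ libraries 2 and 3 and of 0.21, 0.82 and 0.30 in WAP+ libraries 1 to 3. The 853 outside genes under 1000 bases had -0.41 and -0.64 in the Krt6a+ libraries, against 0.26, 0.65 and 0.20 in the WAP+ libraries. Outside genes of 3000 bases or more had 0.13 and 0.19 in the Krt6a+ libraries, against -0.08, -0.09 and -0.07 in the WAP+ libraries. Krt6a+ library 3 was the lowest and WAP+ library 2 the highest for the short genes of both kinds.

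Complex I, the NADH dehydrogenase, had 36 subunit genes, of which 35 were tested. Of these, 34 had a difference below 0, 23, or 65.7%, lay below all WAP+ libraries after scaling, and 1 passed the test. Of all genes tested, 17.4% lay below in this way and 0.434% were called lower. Among outside genes under 1000 bases, 31.9% to 51.8% lay below, by length bin, and 69.6% to 77.7% had a difference below 0. The median difference of the complex I subunits was -1.14, and -0.16 with the length trend removed. That 1 gene was Ndufab1, the mitochondrial acyl carrier protein, which is a subunit of complex I and also carries the acyl chains of mitochondrial fatty acid synthesis. Its level was 0 and 0.95 FPKM in the Krt6a+ libraries and 21.9, 19.6 and 13.6 FPKM in the WAP+ libraries, with a difference of -3.85 ± 0.61 (adjusted p = 0.045). The Krt6a+ libraries were close to 0 and all WAP+ libraries above 10 FPKM. The call was lost with the length trend removed (log2 difference -2.78, adjusted p = 0.15), without any one of the WAP+ libraries (adjusted p = 0.14 to 0.20), without Krt6a+ library 2 (adjusted p = 0.057), with a pseudocount of 0.1 (0.088) or 5 (0.055), on unscaled FPKM (0.052), without the filter (0.16) and without limma's mean-variance trend (0.055).

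Ndufa5 and Ndufb2, accessory subunits of the peripheral and membrane arms, had the next largest test statistics of complex I. Ndufa5 was at 86.4 and 88.1 FPKM in the Krt6a+ libraries and 281.5, 333 and 282 FPKM in the WAP+ libraries, a difference of -1.88 ± 0.35 (adjusted p = 0.057). Ndufb2 was at 125.5 and 100.3 FPKM in the Krt6a+ libraries and 346.5, 620.4 and 541 FPKM in the WAP+ libraries, a difference of -2.23 ± 0.45 (adjusted p = 0.066). Neither passed the test, although their groups did not overlap. Of the membrane-arm and peripheral accessory subunits together, 28 were tested, all had a difference below 0 and their median was -1.27. Their median length was 581.5 bases, and of outside genes of 550 to 700 bases 77.7% were below 0. With the length trend removed the median of the 28 was -0.21, with 15 below 0 and 13 above.

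The core subunits hold the flavin and the iron-sulphur clusters and are conserved from bacteria; none of those described here passed the test. Ndufv1, which binds FMN and accepts the electrons of NADH, was at 49.9 and 51.7 FPKM in the Krt6a+ libraries and 97.3, 63.6 and 76.6 FPKM in the WAP+ libraries, a difference of -0.73 ± 0.37. Its partner Ndufv2 was at 42.0 and 22.4 FPKM in the Krt6a+ libraries and 74.8, 67.5 and 28.4 FPKM in the WAP+ libraries, a difference of -0.87 ± 0.54. For Ndufs1, the largest core subunit, the values were 9.06 and 7.11 FPKM in the Krt6a+ libraries and 7.48, 16.6 and 23.5 FPKM in the WAP+ libraries and the difference was -0.88 ± 0.67. Only Ndufv1 among these 3 had groups that did not overlap.

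Ndufs7, which lies beside the ubiquinone pocket, was at 118 and 73.9 FPKM in the Krt6a+ libraries and 154, 192 and 123 FPKM in the WAP+ libraries, a difference of -0.83 ± 0.42, and its groups did not overlap. Ndufs8, an iron-sulphur subunit, was at 127 and 111 FPKM in the Krt6a+ libraries and 121, 151 and 82.2 FPKM in the WAP+ libraries, a difference of -0.071 ± 0.40. Ndufs3 was at 39.9 and 18.2 FPKM in the Krt6a+ libraries and 39.4, 11.7 and 23.5 FPKM in the WAP+ libraries, a difference of 0.16 ± 0.60. Ndufs3 was the 1 subunit of complex I whose difference was above 0, and it turned below 0 without Krt6a+ library 2 (-0.48) or WAP+ library 2 (-0.27). Adjusted p for these 6 core subunits lay between 0.36 and 0.96.

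The 7 tested Ndufaf genes, which assist complex I assembly and are not part of the finished enzyme, were low and scattered. Their summed level was 67 and 29 FPKM in the Krt6a+ libraries and 98, 67 and 31 FPKM in the WAP+ libraries. The median difference was -0.78, 5 were below 0 and 2 above, and none passed the test. With the length trend removed the median was -0.07, with 4 below 0 and 3 above. Ndufaf4 was at 1.29 and 3.09 FPKM in the Krt6a+ libraries and 8.72, 7.66 and 2.63 FPKM in the WAP+ libraries, a difference of -1.23 ± 0.70 (adjusted p = 0.42). Ndufaf2 was at 29.3 and 3.47 FPKM in the Krt6a+ libraries and 26.8, 32.0 and 11.46 FPKM in the WAP+ libraries, and Ndufaf6 at 14.6 and 0.41 FPKM in the Krt6a+ libraries and 26.5, 3.29 and 3.15 FPKM in the WAP+ libraries. Both were high in Krt6a+ library 2 and low in Krt6a+ library 3, so that their differences of -1.05 ± 0.87 and -0.78 ± 1.18 became 0.42 and 0.99 without Krt6a+ library 3.

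Complex II, the succinate dehydrogenase, also belongs to the citric acid cycle. Its flavoprotein Sdha was at 14.8 and 15.6 FPKM in the Krt6a+ libraries and 23.9, 22.1 and 14.3 FPKM in the WAP+ libraries, a difference of -0.46 ± 0.46. The iron-sulphur subunit Sdhb was at 127 and 104 FPKM in the Krt6a+ libraries and 194.5, 130.5 and 46.5 FPKM in the WAP+ libraries, a difference of -0.0015 ± 0.54, and WAP+ library 3 was the lowest of the 5. The membrane anchors Sdhc and Sdhd were at 7.78 and 22.0 FPKM in the Krt6a+ libraries and 41.8, 37.3 and 26.9 FPKM in the WAP+ libraries, and at 46.3 and 25.2 FPKM in the Krt6a+ libraries and 28.04, 102 and 38.0 FPKM in the WAP+ libraries; their differences were -1.45 ± 0.51 (adjusted p = 0.20) and -0.59 ± 0.67 (adjusted p = 0.71). None of the 4 passed the test, and only Sdhc kept its groups apart on the deposited values. The median difference of the 4 was -0.53, and -0.24 with the length trend removed.

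Complex III, the cytochrome bc1 complex, had 8 tested genes with a median difference of -0.59, 7 below 0 and none past the test. With the length trend removed its median was 0.52 and 7 of the 8 were above 0. At a median of 524.5 bases these are short transcripts. Against genes of like length, Uqcr10, Uqcr11, Uqcrc1 and Uqcrq were above 0, and Uqcrb, Uqcrc2, Uqcrfs1 and Uqcrh below. The 3 with the largest test statistics were small subunits. Uqcrh, the hinge protein at the cytochrome c1 side, was at 258 and 239 FPKM in the Krt6a+ libraries and 451, 721 and 514 FPKM in the WAP+ libraries, a difference of -1.27 ± 0.39 (adjusted p = 0.16). Uqcrb was at 258 and 239.9 FPKM in the Krt6a+ libraries and 405, 845 and 458 FPKM in the WAP+ libraries, and Uqcrq at 713 and 724 FPKM in the Krt6a+ libraries and 1157, 1442 and 982 FPKM in the WAP+ libraries, with differences of -1.23 ± 0.45 and -0.83 ± 0.35. The groups of all 3 stayed apart, and all 3 differences were above 0 with the length trend removed, at 0.26, 0.38 and 0.79. The Rieske iron-sulphur protein Uqcrfs1, the electron-transferring subunit among the nuclear genes taken here, was at 77.0 and 93.6 FPKM in the Krt6a+ libraries and 128, 92.5 and 92.7 FPKM in the WAP+ libraries, a difference of -0.40 ± 0.34 (adjusted p = 0.60). Cyc1, cytochrome c1 of the same complex, whose symbol the naming rule does not catch, was at 114 and 61.4 FPKM in the Krt6a+ libraries and 66.1, 88.9 and 95.6 FPKM in the WAP+ libraries.

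NRF1, the ETS factor GABP, YY1 and the oestrogen-related receptors are known regulators of nuclear respiratory chain genes, and the promoters of a few genes are shown with the letters of their motifs. Windows of 250 bases before to 50 bases after the start are from RefSeq on GRCm38.p6, of the same build as mm10; all 101 genes were matched by transcript accession and 83 had a window. Capitals mark any match, on either strand, to NRF1 (GCATGCGC), to ETS factors such as GABP (CCGGAAGT), to YY1 (AAGATGGC) and to oestrogen-related receptors, ERR (CAAGGTCA). The first 3 sequences are the called genes, Cox7a2 is the counterpart of Cox7a1, and Uqcr11, a small subunit of complex III, is one of 3 genes with more than 1 kind of match in a window.
Cox7a1 promoter (GRCm38.p6, chr7:30183921-30184220, plus strand): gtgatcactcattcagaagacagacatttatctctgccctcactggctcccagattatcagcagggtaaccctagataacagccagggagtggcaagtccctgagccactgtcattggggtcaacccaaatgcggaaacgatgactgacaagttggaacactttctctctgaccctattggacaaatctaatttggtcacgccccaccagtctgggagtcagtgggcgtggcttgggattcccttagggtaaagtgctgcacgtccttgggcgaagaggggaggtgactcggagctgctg
Cox20 promoter (GRCm38.p6, chr1:178318903-178319202, plus strand): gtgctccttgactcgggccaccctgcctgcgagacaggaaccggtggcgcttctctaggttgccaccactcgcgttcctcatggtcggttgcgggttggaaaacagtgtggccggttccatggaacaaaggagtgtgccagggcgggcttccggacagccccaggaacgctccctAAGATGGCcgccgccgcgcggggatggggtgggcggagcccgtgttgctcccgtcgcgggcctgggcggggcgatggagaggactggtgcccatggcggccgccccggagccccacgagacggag
Ndufab1 promoter (GRCm38.p6, chr7:122101799-122102098, minus strand): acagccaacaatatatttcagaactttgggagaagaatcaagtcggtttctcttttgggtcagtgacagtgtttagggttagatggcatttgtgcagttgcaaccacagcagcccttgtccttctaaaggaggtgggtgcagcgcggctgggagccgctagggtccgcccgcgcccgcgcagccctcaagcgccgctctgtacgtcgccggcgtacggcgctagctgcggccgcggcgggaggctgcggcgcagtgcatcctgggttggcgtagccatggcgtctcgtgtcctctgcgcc
Cox7a2 promoter (GRCm38.p6, chr9:79759804-79760103, minus strand): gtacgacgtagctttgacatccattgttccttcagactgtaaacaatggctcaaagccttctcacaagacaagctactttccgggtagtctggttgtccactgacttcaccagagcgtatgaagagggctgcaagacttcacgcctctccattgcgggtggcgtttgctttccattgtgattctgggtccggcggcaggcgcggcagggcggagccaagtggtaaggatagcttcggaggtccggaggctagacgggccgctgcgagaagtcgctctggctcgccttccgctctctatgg
Uqcr11 promoter (GRCm38.p6, chr10:80406772-80407071, minus strand): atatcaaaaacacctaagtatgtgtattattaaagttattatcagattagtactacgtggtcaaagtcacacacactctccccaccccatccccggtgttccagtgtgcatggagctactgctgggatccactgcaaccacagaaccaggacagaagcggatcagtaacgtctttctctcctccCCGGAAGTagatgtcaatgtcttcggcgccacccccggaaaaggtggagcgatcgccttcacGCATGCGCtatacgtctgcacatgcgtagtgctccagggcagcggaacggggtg
Cox7a1, Ndufab1 and Cox7a2 hold none of the 4 motifs in these windows, Cox20 holds that of YY1, and Uqcr11 holds those of NRF1 and ETS factors. Over the 90 windows of these genes, 12, or 13.3%, held the NRF1 motif against 2.71% of all 32851 windows, 9 held the ETS motif against 3.89% of all windows, 14, or 15.6%, the YY1 motif against 2.75%, and 4, or 4.44%, the ERR motif against 1.56%. The windows of these genes also had more G and C, with a median of 58.8% against 52.7%. A match is a description of the letters.

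Complex IV, cytochrome c oxidase, had 20 subunit genes here, of which 14 were tested. All 14 differences were below 0, with a median of -1.19, and 1 gene passed the test, where 0.434% of all genes were called lower. After scaling, 11, or 78.6%, lay below all WAP+ libraries, against 17.4% of all genes tested. Among outside genes under 1000 bases, 31.9% to 51.8% did so, by length bin, and 69.6% to 77.7% had a difference below 0. With the length trend removed the median was 0.18 and 10 of the 14 were above 0. Against genes of like length, Cox5b, Cox6a1, Cox6b2, Cox7a2l and Cox8a were above 0 and the other tested subunits below. Summed over the 20 genes, the level was 6195 and 5094 FPKM in the Krt6a+ libraries and 10660, 14546 and 9719 FPKM in the WAP+ libraries.

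The gene past the test was Cox7a1, the isoform of subunit VIIa best known from heart, skeletal muscle and brown fat, on chromosome 7 (chr7:30184171-30186030, mm10, transcript NM_009944 of 366 bases, the whole gene span). It was listed at 0 in both Krt6a+ libraries and at 23.1, 80.8 and 44.0 FPKM in WAP+ libraries 1 to 3. The groups did not overlap (adjusted p = 0.029). Since one group is listed at 0, no fold is given; the fitted log2 difference of -5.53 ± 0.70 depends on the pseudocount of 1, and was -8.82 with 0.1 and -3.35 with 5. With the length trend removed it was -3.59 (adjusted p = 0.15), and without any one of the WAP+ libraries the adjusted p was 0.090 to 0.20. Without the filter it was 0.12 and without the mean-variance trend 0.052.

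Its counterpart in most tissues, Cox7a2, was far more abundant in both groups and was also lower in the Krt6a+ libraries without passing the test. Cox7a2 was at 245.5 and 212 FPKM in the Krt6a+ libraries and 712, 680.3 and 494 FPKM in the WAP+ libraries, a difference of -1.56 ± 0.34 (adjusted p = 0.080). The deposited 95% bounds of Cox7a2 were 227 to 264 and 192 to 232 FPKM in the Krt6a+ libraries and 674 to 749, 648 to 713 and 464 to 523 FPKM in the WAP+ libraries. Cox7a2l, a relative that joins complexes III and IV into supercomplexes, was at 33.8 and 40.3 FPKM in the Krt6a+ libraries and 36.6, 65.9 and 57.2 FPKM in the WAP+ libraries, a difference of -0.59 ± 0.47. Its groups overlapped.

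Markers of tissues that use Cox7a1 were looked for in the same libraries. Of 10 adipocyte markers, 7 were at 0 throughout, namely Adipoq, Plin1, Cidec, Lep, Retn, Cfd and Adrb3. Fabp4, which adipocytes and capillary endothelium share, was at 0 in both Krt6a+ libraries and at 2188, 65.8 and 20.3 FPKM in the WAP+ libraries, and Ucp1, the uncoupling protein of brown fat, at 0.34 and 6.73 FPKM in the Krt6a+ libraries and at 0 in the WAP+ libraries. The summed adipocyte list was 0.34 and 19.0 FPKM in the Krt6a+ libraries and 2198, 74.4 and 34.9 FPKM in the WAP+ libraries. Besides Fabp4, only Cidea of this list reached 1 FPKM in a WAP+ library, at 0 and 12.3 FPKM in the Krt6a+ libraries and 9.50, 8.68 and 14.7 FPKM in the WAP+ libraries.

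The 14 striated muscle markers summed to 22.8 and 10.97 FPKM in the Krt6a+ libraries and 20.5, 12.3 and 7.11 FPKM in the WAP+ libraries, with 6 of them, including Myh1, Myh2 and Myh7, at 0 throughout. The 10 smooth muscle and pericyte markers summed to 2.96 and 5.07 FPKM in the Krt6a+ libraries and 54.3, 49.9 and 29.4 FPKM in the WAP+ libraries, mostly Acta2 and Tagln, which myoepithelial cells also make; Rgs5 was at 0 throughout. The 8 endothelial markers summed to 0.09 and 7.51 FPKM in the Krt6a+ libraries and 259, 3.88 and 0.17 FPKM in the WAP+ libraries, so that 1 WAP+ library held nearly all of it. The 7 fibroblast markers summed to 57.5 and 210.1 FPKM in the Krt6a+ libraries and 17.1, 8.60 and 84.2 FPKM in the WAP+ libraries, mostly Dcn, and the 8 immune markers to 6.49 and 21.4 FPKM in the Krt6a+ libraries and 10.1, 26.4 and 19.5 FPKM in the WAP+ libraries, mostly Cd68, with Ptprc at 0 throughout. Of these sums, that of the smooth muscle and pericyte markers was, like Cox7a1, lower in both Krt6a+ libraries than in all 3 WAP+ libraries, as was that of the adipocyte markers. The part of other cells in the level of Cox7a1 was not tested.

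Among the other subunits with tissue forms, the common form was the main one in all libraries. Cox4i1, the usual subunit IV, was at 902 and 751 FPKM in the Krt6a+ libraries and 1771, 2089 and 1756 FPKM in the WAP+ libraries, a difference of -1.30 ± 0.36 (adjusted p = 0.13). Cox4i2, the lung and hypoxia form, was at 0.30 and 1.15 FPKM in the Krt6a+ libraries and 0.77, 0.70 and 0.44 FPKM in the WAP+ libraries. Cox6a1, the common form of subunit VIa, was at 1020 and 789 FPKM in the Krt6a+ libraries and 1442, 1850 and 1205 FPKM in the WAP+ libraries, a difference of -0.84 ± 0.38, and the muscle form Cox6a2 was listed at 0. Cox6b1 was at 750.2 and 764 FPKM in the Krt6a+ libraries and 1591, 2389 and 1529 FPKM in the WAP+ libraries, a difference of -1.37 ± 0.38, and the testis form Cox6b2 was at 0 and 3.83 FPKM in the Krt6a+ libraries and 22.1, 0 and 0 FPKM in the WAP+ libraries. The groups of Cox4i1, Cox6a1 and Cox6b1 did not overlap, those of Cox4i2 and Cox6b2 did, and Cox6b2 was above 0 in 1 library of each group.

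Cox8a, the common form of subunit VIII, was at 887 and 878 FPKM in the Krt6a+ libraries and 1041, 1570 and 871 FPKM in the WAP+ libraries, a difference of -0.47 ± 0.39, and with the length trend removed it was at 1.06. Cox7b was at 142 and 99.2 FPKM in the Krt6a+ libraries and 223, 304.5 and 159.6 FPKM in the WAP+ libraries, a difference of -1.01 ± 0.42. Ndufa4, first assigned to complex I and now counted with complex IV, was the most abundant of the 101 genes in 4 of the 5 libraries, at 1281 and 799 FPKM in the Krt6a+ libraries and 2415, 3015 and 2063 FPKM in the WAP+ libraries, a difference of -1.41 ± 0.41 (adjusted p = 0.14). None of these 3 passed the test.

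**Figure D3:**
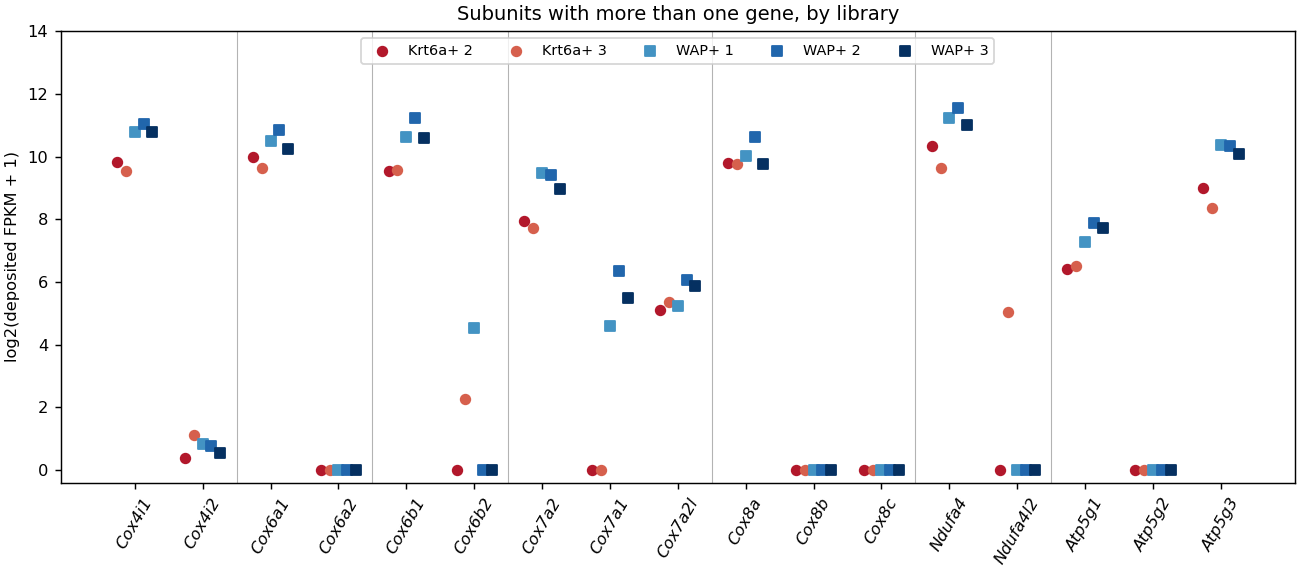
Deposited levels, as log2(FPKM + 1), of subunits that have more than one gene; circles are the 2 Krt6a+ libraries and squares the 3 WAP+ libraries, with vertical lines between families. Cox7a1 is at 0 in both Krt6a+ libraries and at 23.1, 80.8 and 44.0 FPKM in the WAP+ libraries, while Cox6a2, Cox8b, Cox8c and Atp5g2 are at 0 throughout.

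The factors Cox10 to Cox20, which insert haem and copper and guide the subunits of complex IV, had 8 tested genes with a median difference of -0.55, 7 below 0, and 1 past the test. Of all genes tested, 0.434% were called lower. With the length trend removed the median of the 8 was -0.11, with 5 below 0 and 3 above. Cox20, a chaperone of the mitochondrially encoded subunit 2, was at 0.65 and 1.00 FPKM in the Krt6a+ libraries and 77.3, 23.0 and 35.0 FPKM in the WAP+ libraries, a difference of -4.57 ± 0.59 (adjusted p = 0.029). Its gene lies on chromosome 1 (chr1:178319153-178322693, mm10, transcript NM_025511 of 448 bases, the whole gene span). In the GENCODE annotation it shares 392 exon bases with Hnrnpu on the other strand, and since the library kit does not mark strand, their reads cannot be told apart there; Hnrnpu was at 30.4 and 48.6 FPKM in the Krt6a+ libraries and 69.2, 43.1 and 41.2 FPKM in the WAP+ libraries. The Cox20 call was lost with the length trend removed (log2 difference -2.83, adjusted p = 0.24), without any one of the WAP+ libraries (adjusted p = 0.14 to 0.17), without the filter (0.12) and without the mean-variance trend (0.053).

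Ndufab1 shares 123 exon bases with a gene model on the other strand, and no annotated exon overlaps Cox7a1. In all, 33 of the 101 genes share exon bases with another gene, 29 of them with one on the other strand. Cox16 shares 2102 exon bases with Gm20498 and Cox17 shares 257 with Gm21987, both on the same strand, where reads cannot be told apart.

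Cox17, the chaperone that hands copper to complex IV, was at 132 and 135 FPKM in the Krt6a+ libraries and 394, 569 and 502 FPKM in the WAP+ libraries, a difference of -1.97 ± 0.38 (adjusted p = 0.061). Cox16, which helps to build subunit 2 into the enzyme, was at 0 and 23.4 FPKM in the Krt6a+ libraries and 23.8, 49.5 and 28.3 FPKM in the WAP+ libraries, a difference of -2.88 ± 1.16 (adjusted p = 0.26). Cox16 was at 0 in 1 Krt6a+ library and just under the lowest WAP+ library in the other; without Krt6a+ library 3 it was called, at -5.06 (adjusted p = 0.020). Cox14, Cox18 and Cox19 were at -0.33, -0.77 and -0.25 on the log2 scale, Cox10 at -0.013 and Cox11 at 0.30, and none of these 5 passed the test.

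Complex V, the ATP synthase, had 17 genes, of which 15 were tested. Of these differences 14 were below 0, and none passed the test. After scaling, 11 genes, or 73.3%, lay below all WAP+ libraries, against 17.4% of all genes tested. Among outside genes under 1000 bases, 31.9% to 51.8% did so, by length bin, and 69.6% to 77.7% had a difference below 0. The median difference of complex V was -1.21 and, with the length trend removed, -0.13. Summed over the 17 genes, the level was 3439 and 2590 FPKM in the Krt6a+ libraries and 6167, 8773 and 6057 FPKM in the WAP+ libraries. Atp5sl and Atp5s, which carry the Atp5 symbol but are not subunits of the enzyme, are counted here with it.

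In the catalytic F1 head, the alpha and beta subunits Atp5a1 and Atp5b were at 113 and 98.3 FPKM in the Krt6a+ libraries and 216, 228 and 148 FPKM in the WAP+ libraries, and at 279 and 316.5 FPKM in the Krt6a+ libraries and 409, 347 and 284 FPKM in the WAP+ libraries. Their differences were -0.99 ± 0.37 (adjusted p = 0.22) and -0.33 ± 0.32 (adjusted p = 0.65). Atp5e, the small epsilon subunit of the central stalk, had the largest test statistic of the complex and was at 332 and 401 FPKM in the Krt6a+ libraries and 967, 1904 and 1295 FPKM in the WAP+ libraries, a difference of -1.99 ± 0.43 (adjusted p = 0.080). Every WAP+ library held more than the higher Krt6a+ library of Atp5a1 and Atp5e, and the groups of Atp5b overlapped on the deposited values.

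The rotating c ring of the membrane part is encoded by 3 genes for an identical mature protein. Atp5g3 was at 511 and 324 FPKM in the Krt6a+ libraries and 1328, 1293 and 1083 FPKM in the WAP+ libraries, a difference of -1.71 ± 0.37 (adjusted p = 0.080). Atp5g1 was at 85.0 and 89.3 FPKM in the Krt6a+ libraries and 153, 234 and 212 FPKM in the WAP+ libraries, a difference of -1.28 ± 0.41 (adjusted p = 0.17), and Atp5g2 was listed at 0. Atp5g1 and Atp5g3 were each at lower levels in both Krt6a+ libraries than in all 3 WAP+ libraries, and neither passed the test. Atp5j is coupling factor 6 of the peripheral stalk. It was at 418 and 325 FPKM in the Krt6a+ libraries and 815, 1005 and 852 FPKM in the WAP+ libraries. Its difference was -1.39 ± 0.37 (limma, adjusted p = 0.12). With the length trend removed it was 0.15, and against genes of like length -0.24.

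**Figure D4:**
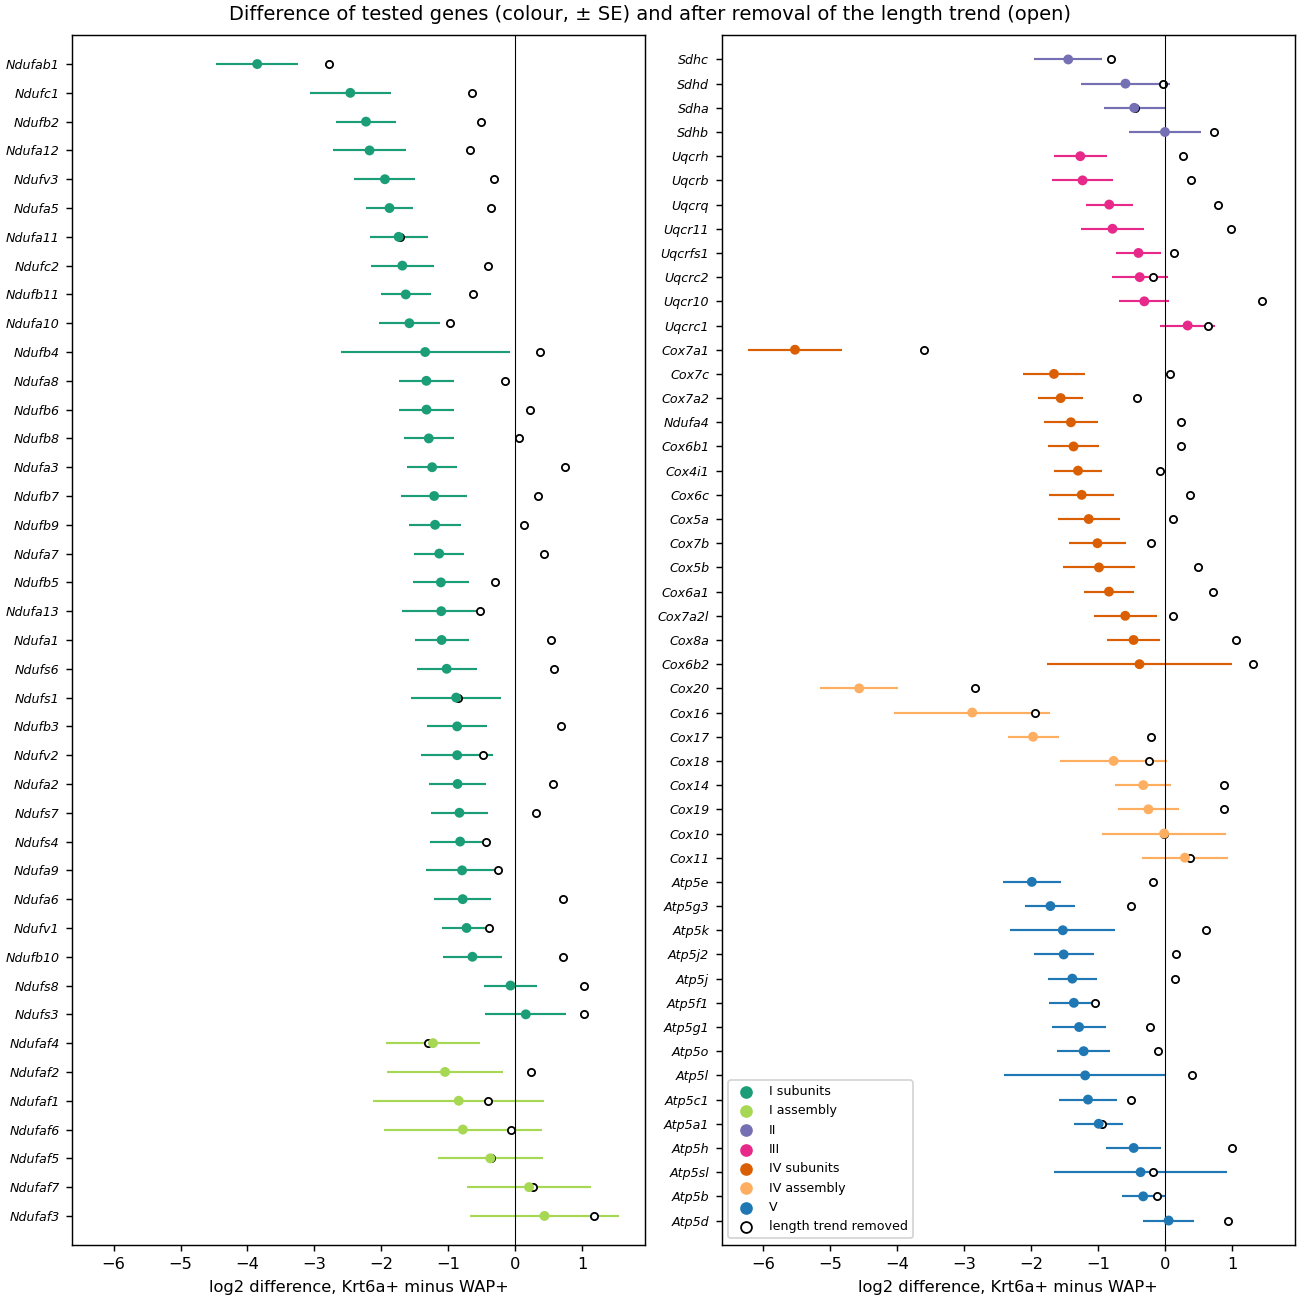
Log2 difference, Krt6a+ minus WAP+, of 90 of the 91 tested genes in order of complex (coloured points, bars are 1 SE; n = 2 and 3 libraries), with the value after removal of the length trend as open circles. Cox7a1, Cox20 and Ndufab1, the 3 called genes, have the lowest differences with and without the length trend, and the open circles lie on both sides of 0.

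Differences above 0 were found for 6 genes, named here after their values were seen, and none passed the test. Besides Ndufs3 these were Uqcrc1, a core protein of complex III, at 137.5 and 135 FPKM in the Krt6a+ libraries and 146.5, 109 and 60.4 FPKM in the WAP+ libraries, with a difference of 0.34 ± 0.41, and Atp5d, the delta subunit of the F1 head, at 182 and 292 FPKM in the Krt6a+ libraries and 259, 235 and 139.9 FPKM in the WAP+ libraries, with a difference of 0.054 ± 0.38. The other 3 were the assembly factors Ndufaf3, Ndufaf7 and Cox11, at 0.44 ± 1.11, 0.21 ± 0.92 and 0.30 ± 0.64. In all 6 the groups overlapped.

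The number of genes called depended on which genes were tested with them. When only genes that reached 1 FPKM in all 5 libraries were kept, 5334 in all, 10 of the 78 oxidative phosphorylation genes were called lower, against 1.86% of the genes tested, and none higher. The 10 were Ndufa5, Ndufa12, Ndufb2, Ndufb11, Ndufc1 and Ndufv3 of complex I, Cox7a2 and Cox17 of complex IV, and Atp5e and Atp5g3 of complex V, with differences of -2.46 (Ndufc1) to -1.56 (Cox7a2) and adjusted p of 0.022 (Ndufb2) to 0.049 (Ndufa12). Cox7a1, Cox20 and Ndufab1 do not pass that filter. With the length trend also removed, 1 of the 78 was called, Ndufa11, an accessory subunit of 2661 bases that was at 35.2 and 23.5 FPKM in the Krt6a+ libraries and 86.1, 111 and 78.5 FPKM in the WAP+ libraries; its difference there was -1.83 (adjusted p = 0.030). At that setting 0.9% of the genes tested were called lower, so 1 of 78 is near the share over all genes. The filter on all libraries was planned; its combination with the length trend was chosen after seeing the data.

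Over the 14 catalytic core subunits of complexes I, II, III and V as 1 list, the median difference was -0.53, 13 were below 0 and none passed the test. Their median length was 1426 bases, and with the length trend removed the median was -0.11. Of outside genes of 1000 to 1500 bases, 64.9% were below 0. By summed level, the ratio of the scaled means, Krt6a+ over WAP+, was 0.430 for complex I subunits, 0.446 for complex IV subunits and 0.396 for complex V, and 0.586 for complex III and 0.727 for complex II. No test of a difference between complexes was made.

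**Figure D5:**
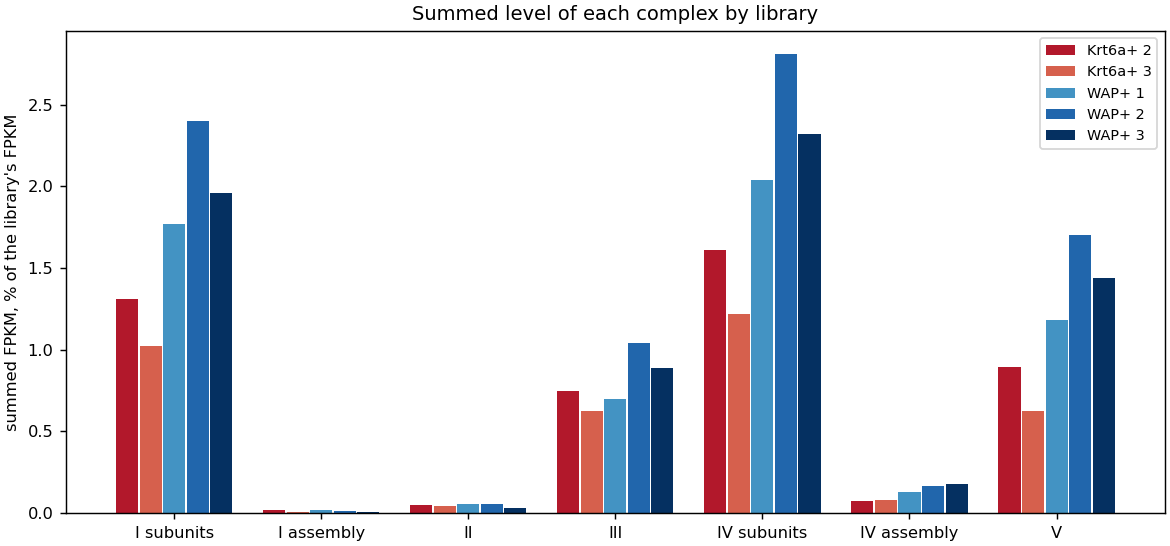
Summed FPKM of each complex or group of assembly factors as a percentage of all FPKM in the library, for the 2 Krt6a+ libraries (left, red) and the 3 WAP+ libraries (right, blue). Complex IV subunits took 1.61% and 1.22% in the Krt6a+ libraries, against 2.04%, 2.81% and 2.32% in the WAP+ libraries, while complex II took 0.05% and 0.04% in the Krt6a+ libraries, against 0.06%, 0.06% and 0.03% in the WAP+ libraries.

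Genes that serve the chain without carrying its names had list medians from -0.90 to -0.06, and none of them passed the test in either direction. Of 34 further assembly factors in the tables, 27 were tested, 19 below 0 and 8 above, with a median of -0.75. With the length trend removed the median was -0.04, with 14 below 0 and 13 above. Cmc2, which takes part in copper delivery to complex IV, was at 0.88 and 3.83 FPKM in the Krt6a+ libraries and 14.2, 15.97 and 19.1 FPKM in the WAP+ libraries, a difference of -2.63 ± 0.63 (adjusted p = 0.098). Coa3 was at 33.6 and 99.1 FPKM in the Krt6a+ libraries and 152, 235 and 133 FPKM in the WAP+ libraries. Its difference was -1.64 ± 0.51. The groups of both, which were picked by test statistic, did not overlap. Of the 27 genes, 25.9% lay below all WAP+ libraries after scaling, against 17.4% of all genes tested.

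Electron carriers and the genes of ubiquinone synthesis had 15 tested genes, 10 below 0 and 5 above, with a median of -0.38. With the length trend removed the median was -0.12, with 9 below 0 and 6 above. Etfb, a subunit of the flavoprotein that brings electrons from fatty acid oxidation, was at 78.9 and 47.2 FPKM in the Krt6a+ libraries and 117, 208 and 177 FPKM in the WAP+ libraries, a difference of -1.52 ± 0.49 (adjusted p = 0.17). Coq7, a hydroxylase of ubiquinone synthesis, was at 0 and 14.2 FPKM in the Krt6a+ libraries and 18.9, 43.5 and 8.46 FPKM in the WAP+ libraries, and its groups overlapped.

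Pyruvate dehydrogenase and the citric acid cycle, which supply the NADH, had 17 tested genes, 12 below 0 and 5 above, with a median of -0.43. Suclg1, a subunit of succinyl-CoA ligase, was at 25.4 and 10.9 FPKM in the Krt6a+ libraries and 44.7, 52.5 and 38.1 FPKM in the WAP+ libraries, a difference of -1.48 ± 0.52 (adjusted p = 0.20). Dld, the dihydrolipoamide dehydrogenase shared by these complexes, was at 6.36 and 10.6 FPKM in the Krt6a+ libraries and 26.7, 16.2 and 20.8 FPKM in the WAP+ libraries, a difference of -1.35 ± 0.48. With the length trend removed the median of the 17, whose median length is 2404 bases, was -0.40.

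The 8 tested genes of nucleotide and phosphate carriers, the outer membrane channels, Ucp2 and the ATPase inhibitor Atpif1 all had differences below 0, with a median of -0.90, and all 8 stayed below 0 with the length trend removed, with a median of -0.30. Ucp2, a carrier of the inner membrane related to the brown fat uncoupler, was at 83.2 and 142.5 FPKM in the Krt6a+ libraries and 274, 184 and 197 FPKM in the WAP+ libraries, a difference of -1.09 ± 0.36 (adjusted p = 0.17). Slc25a5, an ADP/ATP carrier, was at 279 and 235 FPKM in the Krt6a+ libraries and 557, 439 and 361.5 FPKM in the WAP+ libraries. Its difference was -0.92 ± 0.34 (limma, adjusted p = 0.22). The groups of both, which were picked by test statistic, did not overlap. Of the 8 genes, 62.5% lay below all WAP+ libraries after scaling, against 17.4% of all genes tested.

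The regulators of mitochondrial biogenesis had no common direction: 10 were tested, 5 below 0 and 5 above, with a median of -0.06. With the length trend removed it was -0.09. Gabpa, the DNA-binding subunit of the ETS factor GABP, was at 4.93 and 8.28 FPKM in the Krt6a+ libraries and listed at 0 in all 3 WAP+ libraries (adjusted p = 0.069), and so did not pass the test. It shares 182 exon bases with Atp5j on the other strand. Tfam, which packages mitochondrial DNA, was at 0.04 and 3.73 FPKM in the Krt6a+ libraries and 5.68, 4.27 and 4.60 FPKM in the WAP+ libraries, a difference of -1.50 ± 0.78 (adjusted p = 0.37). Nrf1 was at 0.68 and 17.0 FPKM in the Krt6a+ libraries and 3.13, 3.43 and 3.40 FPKM in the WAP+ libraries, and Yy1 at 7.26 and 6.58 FPKM in the Krt6a+ libraries and 14.8, 5.46 and 15.6 FPKM in the WAP+ libraries; the groups of both overlapped. Esrra, Ppargc1a and Ppargc1b stayed under 1 FPKM in every library.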

How the data were processed

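Per the submitters' processing notes, the authors used TopHat and Cufflinks on the mm10 build; no versions or read filters are stated in the sources used here. Per the labels' protocols, cDNA was amplified from few cells with SMART-Seq v4, a kit that does not mark strand, and libraries were made by Nextera tagmentation. Each deposited table gives, per the file headers, an FPKM, its 95% bounds and a coverage for 34535 RefSeq transcripts. In the deposited FPKM the authors divided by transcript length and by the library's mapped fragments. The deposited coverage, a depth signal, served only to estimate depth, at 290 to 385 megabases of fragments per library. Of the values that implied few fragments, 38.2% to 42.1% were whole to within 0.02, too few to recover reads for a count model.

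The members and lists were chosen with earlier results of these data known. Transcripts of 1 symbol were summed (136 transcripts for the 101 genes; 84 genes had 1). To scale the libraries, each FPKM was divided by the median of the library's ratios to the gene-wise geometric means of the 5334 genes that reached 1 FPKM in every library (factors 0.980 and 1.13 for Krt6a+, 1.14, 0.909 and 0.873 for WAP+). Genes at FPKM 1 or more in at least 2 libraries, 9682 in all, were compared on log2(scaled FPKM + 1) with limma 3.58.1 under R 4.3.3, with its mean-variance trend. A fold change on that scale understates the change of low genes. For the length trend, a loess fit (span 0.3) of each library's log2(scaled FPKM + 1) values on log transcript length was subtracted. The library's median was then added back. The script was tested on simulated data. With 2 libraries against 3, an exact permutation test cannot give a p below 0.1, so none is reported. Genes were named with values if called, if among the 3 largest test statistics of a complex, if a tissue isoform or catalytic core subunit, or if at 0 in 1 group and at FPKM 1 or more in every library of the other; of each further list the 2 with the largest statistic, and a few regulators whose motifs were searched, were named. 1 gene that this rule names is not reported here.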

Additional observations from a re-analysis of the deposited data

How the results depend on the processing

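No member was called higher under any setting run. The 3 genes called lower became 2 with a pseudocount of 0.1 or 5 and on unscaled FPKM, 3 with quantile normalization and with the highest transcript per symbol, 0 without a filter, 0 without the mean-variance trend, 10 with FPKM 1 or more in all libraries, 0 with the length trend removed, 1 with that and FPKM 1 or more in all libraries (chosen after seeing the data), and 0 to 4 with 1 library left out: 2 without Krt6a+ library 2, 4 without Krt6a+ library 3 and 0 without each WAP+ library. Where a Krt6a+ library is left out, the lone one is assumed to vary like the others. The median log2 difference of -1.10 was -0.75 with quantile normalization, 0.055 with the length trend removed, -0.12 with that and FPKM 1 or more in all libraries, -1.33 to -0.75 with 1 library left out, and -1.21 with the replicate block. With the replicate block, 1 gene was called lower, Cox7a1; Cox20 (adjusted p = 0.067) and Ndufab1 (0.11) were not. The numbers do not pair the libraries in the labels, and the correlation between groups of the differences between libraries 2 and 3 was 0.029. This value rests on 1 difference per group, so it cannot tell whether libraries of the same number share an animal or a batch.

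Directions turned for named genes that no setting called in that direction. They were, on the log2 scale, with a pseudocount of 0.1, Cox6b2 0.028 and Sdhb 0.0; on unscaled FPKM, Ndufs8 0.049 and Sdhb 0.12; with quantile normalization, Uqcrq 0.004, Cox6a1 0.008, Cox8a 0.37, Ndufs8 0.22, Sdhb 0.27 and Atp5b 0.11; with the highest transcript per symbol, Sdhb 0.017. With the length trend removed they were Ndufaf2 0.23, Uqcrh 0.26, Uqcrb 0.38, Uqcrq 0.79, Atp5j 0.16, Cox6a1 0.72, Cox6b1 0.25, Cox6b2 1.32, Cox7a2l 0.12, Cox8a 1.06, Ndufa4 0.23, Ndufs7 0.31, Ndufs8 1.03, Sdhb 0.73 and Uqcrfs1 0.14, and with FPKM 1 or more in all libraries as well, Uqcrh 0.023, Uqcrb 0.15, Uqcrq 0.56, Cox6a1 0.48, Cox6b1 0.013, Cox7a2l 0.002, Cox8a 0.82, Ndufa4 0.006, Ndufs7 0.079, Ndufs8 0.81, Sdhb 0.60 and Uqcrfs1 0.051. With the replicate block they were Ndufaf6 0.015, Cox6b2 1.07 and Sdhb 0.32. With 1 library left out the ranges were -1.12 to 0.69 for Cox6b2, -0.48 to 0.81 for Ndufs3, -2.51 to 0.42 for Ndufaf2, -2.56 to 0.99 for Ndufaf6, -0.26 to 0.14 for Ndufs8 and -0.54 to 0.30 for Sdhb. Of the genes turned with the length trend removed, Ndufaf2, Uqcrh, Uqcrb, Atp5j, Cox6b1, Ndufa4, Ndufs7 and Uqcrfs1 were below 0 against genes of like length. Uqcrq, Cox6a1, Cox6b2, Cox7a2l, Cox8a, Ndufs8 and Sdhb were above 0 by that measure too. The causes were not tested. An exact 0, few libraries and amplification from few cells limit what can be said of low genes.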
